A study of Mus musculus with 9 samples.

Results

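Transcripts of 3 galectins and of a galectin-binding glycoprotein were followed in spinal cord of B10.PL mice with and without experimental autoimmune encephalomyelitis (EAE), an autoimmune disease of the central nervous system that serves as a model of multiple sclerosis. The members were the 4 genes Lgals1, Lgals3, Lgals3bp and Lgals9, taken by gene symbol from the array's annotation, of 8252 genes that had a probe set of their own. They were read by 5 of 12488 probe sets, 1 each for Lgals1, Lgals3 and Lgals3bp and 2 for Lgals9, and all 5 were among the 12177 tested. Each of 9 samples was total RNA of spinal cord on its own 1-colour array. The groups were 3 arrays of mice with EAE given 200 ng of 1,25(OH)2D3 (calcitriol, active vitamin D; replicates 6, 7 and 8), 3 arrays of mice with EAE given placebo (replicates 1, 5 and 10) and 3 arrays of naive mice (replicates 2, 3 and 4). Cords of both EAE groups were taken 6 h after treatment. All groups shared the strain, and the labels give no age, no immunising agent, no disease score and no treatment of the naive mice, so EAE cannot be told apart from the placebo injection in the comparisons with naive cord. The title of calcitriol replicate 6 names 1,25(OH)2D2, whereas its description names 1,25(OH)2D3, and the array was kept in its group.

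Galectins are small lectins that bind beta-galactosides on the glycans of cell-surface and matrix glycoproteins. They are made in the cytosol without a signal peptide and leave the cell by a route outside the classical secretory pathway. Galectin-1, encoded by Lgals1, works as a dimer of 1 carbohydrate-binding domain and is known for curbing T cell responses. Galectin-3, encoded by Lgals3 and long used as the macrophage surface marker Mac-2, joins such a domain to a long flexible tail through which it forms oligomers, and it marks phagocytes that clear debris. Galectin-9, encoded by Lgals9, carries a pair of different carbohydrate-binding domains on 1 chain and is a ligand of the T cell receptor Tim-3. Lgals3bp encodes a secreted glycoprotein with a scavenger receptor cysteine-rich domain that galectin-3 binds, and its transcript is induced by interferon.

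Each array was brought to a mean signal of 192.8, values under 10% of it (19.3 units) were raised to that floor, and groups were compared on log2 signals with limma. Called stands for a Benjamini-Hochberg adjusted p under 0.05 over all 12177 probe sets. Nothing in the labels says that replicates are separate animals, so p-values measure the spread between these arrays, which may be technical. The number of arrays, 3 a group, limits the precision of each value. Replicate arrays of naive cord resembled each other least, and the lowest correlation within the group was 0.773, between replicates 2 and 4, against 0.902 within calcitriol and 0.923 within placebo arrays. Summed neuron marker signal, the check of the tissue, was 7295 to 8113 units on calcitriol, 8057 to 10660 on placebo and 11730 to 21150 on naive arrays, and none of its 16 measured markers was at the floor on all arrays of a group.

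The stretches around the transcription starts of Lgals3, Lgals9 and Lgals3bp are shown because Lgals9 and Lgals3bp are known as interferon-induced genes, with Lgals3 set beside them. Each runs from 250 bases before to 50 after the start, from RefSeq on GRCm38.p6, and no such stretch was used for Lgals1. Capitals mark every match to any of 9 motifs searched on both strands.
Lgals3, chr14:47373610-47373909, plus strand: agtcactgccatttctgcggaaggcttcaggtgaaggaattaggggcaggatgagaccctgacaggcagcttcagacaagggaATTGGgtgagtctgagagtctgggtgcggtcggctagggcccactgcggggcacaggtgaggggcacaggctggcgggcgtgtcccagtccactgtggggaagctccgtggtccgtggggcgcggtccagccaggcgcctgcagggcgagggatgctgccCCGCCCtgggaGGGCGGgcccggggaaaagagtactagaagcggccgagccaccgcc
Lgals9, chr11:78984875-78985174, minus strand: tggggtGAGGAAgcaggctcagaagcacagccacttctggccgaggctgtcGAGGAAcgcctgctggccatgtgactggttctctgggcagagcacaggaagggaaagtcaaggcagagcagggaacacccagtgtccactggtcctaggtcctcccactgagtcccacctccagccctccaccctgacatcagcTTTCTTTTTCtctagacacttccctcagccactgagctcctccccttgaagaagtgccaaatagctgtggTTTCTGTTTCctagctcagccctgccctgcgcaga
Lgals3bp, chr11:118401910-118402209, minus strand: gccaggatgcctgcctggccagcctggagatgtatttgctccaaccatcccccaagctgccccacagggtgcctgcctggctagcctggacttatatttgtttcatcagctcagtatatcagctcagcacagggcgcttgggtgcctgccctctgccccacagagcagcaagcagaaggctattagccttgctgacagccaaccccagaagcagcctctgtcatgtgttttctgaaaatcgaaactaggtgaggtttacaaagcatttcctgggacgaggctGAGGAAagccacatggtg

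The core of the interferon-stimulated response element, GAAANNGAAA, matched in the Lgals9 stretch at bases 196 to 205 and 266 to 275, counted from 1 at the printed 5′ end, as TTTCTTTTTC and TTTCTGTTTC on the printed strand. Of all 32851 stretches of this length, 3.44% held it, and those of Lgals3 and Lgals3bp did not. The motifs were chosen with the stretches in view, so the shares given here describe the letters and test nothing. The PU.1 site GAGGAA, the letters read by a transcription factor of myeloid cells, stood at 2 places in the Lgals9 stretch and at 1 in that of Lgals3bp, and in 28.3% of all stretches. The Lgals3 stretch held the GC box GGGCGG once on each strand (35.7% of all stretches) and CCAAT on the opposite strand (37.4%). The interferon gamma-activated core TTCNNNGAA (8.3% of all), the NF-kappa B site GGGANTTTCC (0.411%), the AP-1 site TGANTCA (7.81%), TATAAA (13.6%) and the vitamin D response element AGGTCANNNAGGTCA (0.00609%) matched in none of the 3 stretches. No marked match overlapped one of another motif.

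Lgals3 was the member with the largest differences from naive cord. Its signal was 426.4, 246.5 and 757 units on calcitriol replicates 6, 7 and 8, and 164.7, 361.9 and 60.1 units on placebo replicates 1, 5 and 10. On naive replicates 2, 3 and 4 it was -3.47, -7.10 and -6.23 units, below 0 on each. All 6 EAE arrays therefore lay above all naive arrays, while calcitriol and placebo arrays overlapped. With the naive arrays at the floor, Lgals3 was at least 22.3-fold higher in calcitriol-treated EAE than in naive cord (4.48 ± 0.60 log2, SE, limma adjusted p = 0.00585). In placebo-treated EAE it stood at least 7.94-fold above naive cord (2.99 ± 0.60 log2, SE), which was not called (limma adjusted p = 0.0579). The placebo value passed in 4 of 19 alternatives, and its limma adjusted p ran from 0.0124 with array weights to 0.236 without placebo replicate 1. Array weights also raised the calls over all probe sets in that comparison from 114 to 639. The placebo value was 3.66 log2 without placebo replicate 10, the array with the lowest Lgals3 signal in EAE (limma adjusted p = 0.0181), and 2.37 log2 without placebo replicate 5, the placebo array with the highest (0.188). Both bounds move with the floor: with floors of 20% and 5% of the mean they were 3.48 and 5.48 log2 in calcitriol-treated EAE and 1.99 and 3.99 log2 in placebo-treated EAE.

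Lgals3 also varied more between arrays of a group than most probe sets. The SD of its log2 signal was 0.81 over calcitriol arrays and 1.30 over placebo arrays, where the median over all tested probe sets was 0.25 and 0.23. The 3 placebo arrays spanned 60.1 to 361.9 units. Its SD over naive arrays was 0 by construction, since all 3 were at the floor. That 0 enters the shared estimate of spread, so the SE and p-values of Lgals3 may be too small.

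**Figure D1:**
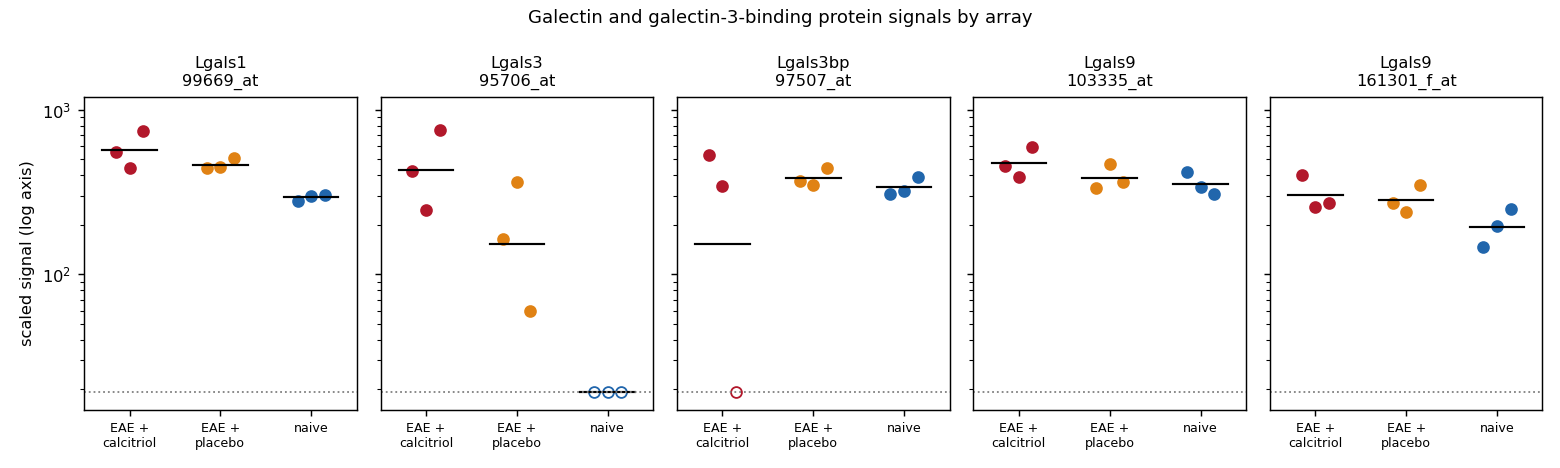
Scaled signal (log axis) of the 5 probe sets on each array of calcitriol-treated EAE, placebo-treated EAE and naive cord, with a bar at the mean of the log2 values. The dotted line is the floor of 19.3 units, and open circles are arrays at or below it: all 3 naive arrays for Lgals3, and calcitriol replicate 8 for Lgals3bp.

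Lgals1 was higher in EAE by a smaller and more even amount. Its signal was 553.6, 439.6 and 743.7 units on calcitriol replicates 6, 7 and 8, and 439, 445.3 and 509.6 units on placebo replicates 1, 5 and 10. The naive arrays had 278.3, 300.2 and 303.3 units (replicates 2, 3 and 4), below every EAE array. Lgals1 averaged 579 ± 154 units in calcitriol-treated EAE, 465 ± 39.1 in placebo-treated EAE and 294 ± 13.6 in naive cord (SD, n = 3 each). It was 1.93-fold higher in calcitriol-treated EAE than in naive cord (0.95 ± 0.19 log2, SE, limma adjusted p = 0.033). In placebo-treated EAE the difference from naive cord was 1.58-fold (0.66 ± 0.19 log2, SE) and was not called (limma adjusted p = 0.212).

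The Lgals1 call in calcitriol-treated EAE was lost without calcitriol replicate 6 (limma adjusted p = 0.107) or 8 (0.1004), without placebo replicate 1 (0.0635), 5 (0.0638) or 10 (0.0543), and without naive replicate 3 (0.102) or 4 (0.0702). It was also lost with only the calcitriol and naive arrays in the fit (0.112) and without the intensity trend (0.0758), and its size stayed between 0.75 and 1.13 log2 in all 19 alternatives. The placebo arrays enter this comparison only through the shared estimate of the spread.

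Lgals9 differed less, and its 2 probe sets differed in the size of the change. At the plain one, with the suffix _at alone, the signal was 456.5, 391.1 and 593.1 units on calcitriol replicates 6, 7 and 8, and 334.8, 469.9 and 365 units on placebo replicates 1, 5 and 10. Naive replicates 2, 3 and 4 had 417.5, 338.6 and 308.4 units, so the 3 groups overlapped. The log2 difference from naive cord was 0.43 ± 0.20 (SE, limma adjusted p = 0.453) in calcitriol-treated and 0.13 ± 0.20 (SE, 0.901) in placebo-treated EAE.

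At the other, whose suffix _f_at marks a probe set that can pick up related sequences, Lgals9 had 402.5, 255.3 and 272.4 units on calcitriol replicates 6, 7 and 8, and 270.5, 239.6 and 346.9 units on placebo replicates 1, 5 and 10. Naive replicates 2, 3 and 4 had 145.7, 196.1 and 249.3 units. Every calcitriol array lay above every naive array, and placebo and naive arrays overlapped at placebo replicate 5. The log2 difference from naive cord was 0.66 ± 0.25 (SE, limma adjusted p = 0.317) in calcitriol-treated and 0.55 ± 0.25 (SE, 0.55) in placebo-treated EAE. Neither Lgals9 probe set was called in these comparisons, and at both the differences were positive, with 95% intervals that reached 1.22 log2 at most.

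Lgals3bp arrays of the 3 groups overlapped, and its level rests on how 1 exact 0 is treated. Its signal was 531.4 and 342.5 units on calcitriol replicates 6 and 7, and 367.8, 350 and 442.3 units on placebo replicates 1, 5 and 10. Naive replicates 2, 3 and 4 had 306.4, 321.8 and 389.3 units. Calcitriol replicate 8 was listed at exactly 0, 1 of 46 exact zeros on that array. With that 0 raised to the floor, the log2 difference of calcitriol-treated EAE from naive cord was -1.15 ± 0.98 (SE, limma adjusted p = 0.711). With exact zeros set to missing it was 0.34 ± 0.21 (SE, limma adjusted p = 0.572), opposite in sign and on 2 calcitriol arrays. In placebo-treated EAE the difference was 0.19 ± 0.98 log2 (SE, limma adjusted p = 0.976), and its SE carries the spread that the 0 adds to the shared estimate.

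**Figure D2:**
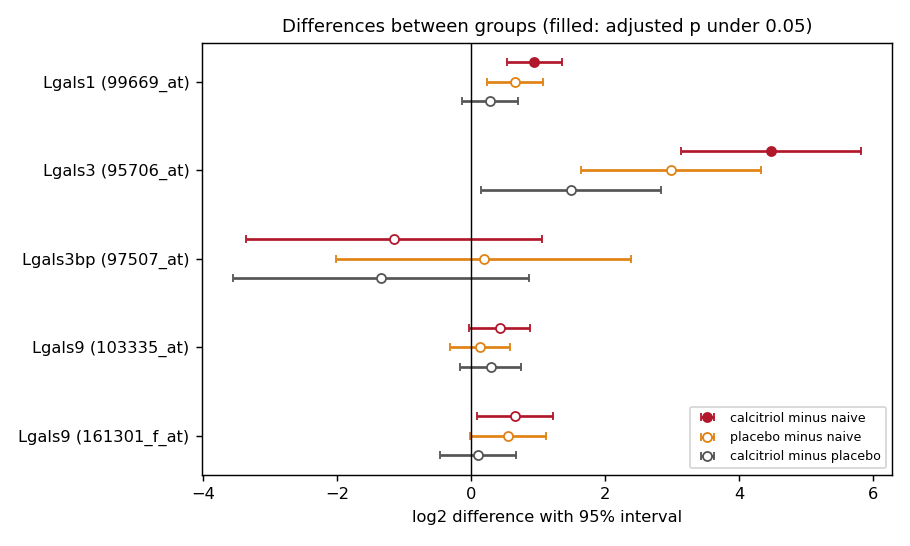
Log2 difference of each probe set (horizontal axis) with its 95% interval, for calcitriol-treated EAE minus naive, placebo-treated EAE minus naive and calcitriol-treated minus placebo-treated EAE. Filled points are called: Lgals3 at 4.48 and Lgals1 at 0.95, both for calcitriol-treated EAE minus naive cord. The wide Lgals3bp intervals include the exact 0 on calcitriol replicate 8.

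In counts, 2 of the 5 probe sets were called higher in calcitriol-treated EAE than in naive cord, where 1.68% of all tested probe sets were, and 0 of 5 in placebo-treated EAE, where 0.887% were. At an unadjusted p under 0.05 the members' counts were 3, where 11.9% of all probe sets passed, and 2, where 9.33% did. Calcitriol and naive arrays did not overlap, with calcitriol higher, at 3 of the 5 (Lgals1, Lgals3 and Lgals9 at its _f_at probe set), against 8.45% of all probe sets. Placebo and naive arrays did not overlap, with placebo higher, at 2 of the 5 (Lgals1 and Lgals3), against 7.39%. The 2 comparisons share the naive arrays. Lgals3 passed the filter through its EAE arrays alone. The members were chosen with earlier results of these data known, so these counts and shares are a description. The 5 differences had a median of 0.66 log2 in calcitriol-treated and 0.55 in placebo-treated EAE, where the median over all tested probe sets was -0.02 in each.

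A contrast of both EAE groups together with naive cord was added after the data had been seen, and its counts are a description too. In it, 2 of the 5 probe sets were called higher, Lgals3 (by 13.3-fold or more, 3.73 ± 0.52 log2, with limma adjusted p = 0.0059) and Lgals1 (0.80 ± 0.16 log2, SE, limma adjusted p = 0.0343), against 1.86% of all probe sets. At the same 2, all 6 EAE arrays lay above all 3 naive arrays, as at 4.43% of all probe sets. Lgals9 at its _f_at probe set stood at 0.61 ± 0.22 log2 (SE, limma adjusted p = 0.26). With array weights it was called, at 0.51 ± 0.15 log2 (SE, limma adjusted p = 0.0495). That setting weighted naive replicate 3 by 4.38 and naive replicates 2 and 4 by 0.259 and 0.414. Over all probe sets it raised the calls from 268 to 1461.

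Between the EAE groups no member was called. The comparison asks what 200 ng of calcitriol had changed after 6 h, and 0 of 5 members and 0% of all 12177 probe sets passed limma's adjusted threshold in either direction, while 1 of 5 members and 314 of all probe sets (2.58%) had an unadjusted p under 0.05. Lgals3 was the member in question, with a log2 difference of 1.49 ± 0.60 (SE, limma adjusted p = 1) and a 95% interval of 0.15 to 2.83. Its difference ran from 0.82 without placebo replicate 10 to 2.11 without placebo replicate 5, and placebo replicate 5, at 361.9 units, was above calcitriol replicate 7, at 246.5 units. Lgals1 differed by 0.29 ± 0.19 log2 (SE, 95% interval -0.13 to 0.70, limma adjusted p = 1), and by 0.09 without calcitriol replicate 8. Lgals9 differed by 0.29 ± 0.20 log2 (SE) at its plain probe set and 0.11 ± 0.25 (SE) at its _f_at probe set, with intervals that reached 0.75 and 0.67. Lgals3bp differed by -1.34 ± 0.98 log2 (SE), and by 0.15 ± 0.21 (SE) with exact zeros missing. At 0 of the 5 did all calcitriol arrays lie above all placebo arrays, as 4.82% of all probe sets did.

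**Figure D3:**
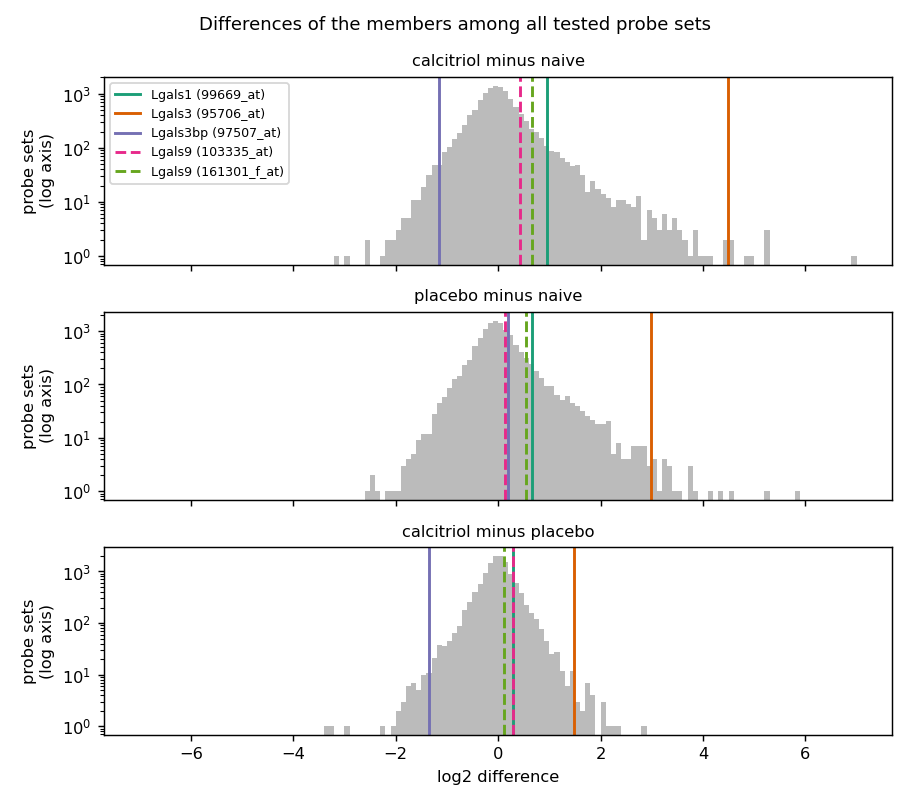
Distribution of the log2 difference (horizontal axis) over all 12177 tested probe sets, with the number of probe sets on a log axis, for the 3 comparisons between groups. Vertical lines mark the members, dashed for Lgals9: Lgals3 lies to the right of the other members in both comparisons with naive cord (4.48 and 2.99, both lower bounds), and in calcitriol minus placebo the lines of Lgals1 and of Lgals9 at its plain probe set coincide at 0.29.

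On calcitriol replicate 8 the signals of Lgals1, Lgals3 and Lgals9 at its plain probe set were each the highest of all 9 arrays. The same array had the highest summed signal of the 25 measured macrophage and microglia markers, 14060 units. That sum was 9022 to 14060 units on calcitriol, 8445 to 10660 on placebo and 4144 to 4359 on naive arrays, so all EAE arrays were above all naive arrays, and the markers Lyz2 and Cd53 were at the floor on each naive array. By sum, the lowest of the 6 EAE arrays were placebo 1 (8445), calcitriol 7 (9022) and placebo 5 (10290). Then came placebo 10 (10660), calcitriol 6 (11920) and calcitriol 8 (14060). Scaled Lgals1 signals had the same order. Its lowest 3 signals in EAE, 439, 439.6 and 445.3 units, were nearly equal. The scaling factors of those arrays were 0.932, 0.944 and 0.975, so the order of these 3 depends on the scaling. Lgals3 broke the order of the sum at placebo replicate 10. That array had the lowest Lgals3 signal of the 6 beside a sum of 10660 units, above 3 of the other EAE arrays. In whole cord, more cells of a type and more RNA per cell cannot be told apart.

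**Figure D4:**
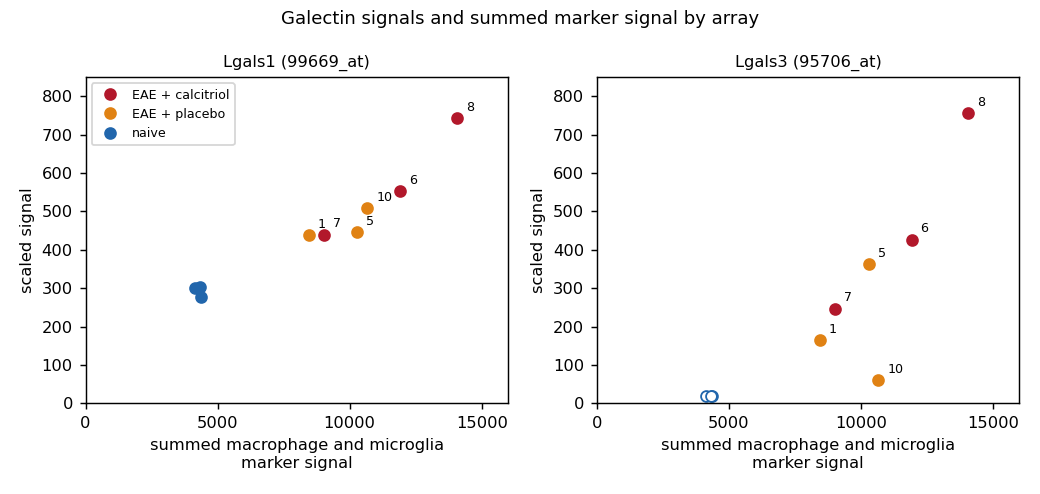
Scaled signal of Lgals1 and Lgals3 (vertical axes) against the summed signal of 25 macrophage and microglia markers (horizontal axis), 1 point per array, with replicate numbers beside the EAE arrays. Open circles lie at the floor of 19.3 units. Naive arrays sit at sums of 4144 to 4359 and EAE arrays at 8445 to 14060, and placebo replicate 10 is low for Lgals3 only.

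Other marker sums moved with EAE as well. The neuron sum given above was lower on all EAE arrays (7295 to 10660 units) than on naive arrays (11730 to 21150). The 14 neutrophil markers summed to 5513 to 8286 units on calcitriol, 5576 to 7331 on placebo and 3234 to 3538 on naive arrays. Of the 14, 4 were called higher and 12 had a positive difference in each EAE group against naive cord. Their median was 0.29 log2 in calcitriol-treated and 0.49 in placebo-treated EAE. S100a9 was at the floor on each naive array. The 12 fibroblast and meninges markers summed to 3851 to 4969 units on calcitriol, 4223 to 4390 on placebo and 3254 to 3752 on naive arrays. That sum includes Fn1, the only gene of its list called. Against naive cord, 6 of the 12 had a positive difference in calcitriol-treated and 7 in placebo-treated EAE. The list's medians were 0.03 and 0.04 log2. B cell and plasma cell sums were 2338 to 2588 units on calcitriol, 2104 to 2361 on placebo and 2417 to 2524 on naive arrays, so placebo arrays lay below naive arrays while calcitriol arrays overlapped them. Sums of EAE and naive arrays overlapped for T cells (3081 to 3372, 3021 to 3173 and 3139 to 3620 units), astrocytes (10080 to 15210, 14840 to 16640 and 8269 to 15070), oligodendrocytes (5770 to 8428, 7807 to 8267 and 7964 to 10130), endothelium (1400 to 1641, 1435 to 1656 and 1189 to 1440) and Schwann cells (680 to 905, 741 to 938 and 755 to 1043). The 5′ minus 3′ log2 signal of beta-actin, a measure of RNA length, was -0.83 to -0.52 on calcitriol, -1.11 to -0.42 on placebo and -0.25 to 0.12 on naive arrays, so it too separated EAE from naive cord. What part cell makeup or RNA length had in the Lgals1 and Lgals3 differences was not tested.

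The other galectins on the array were not called in any comparison. Of 9 such genes listed, 5 were measured: Lgals2, Lgals4 and Lgals7, best known from epithelia, Lgals8, a galectin with a pair of carbohydrate-binding domains that senses damaged vesicles, and the galectin-related gene Lgalsl. Lgals8 had 115.6, 97.9 and 110.6 units on calcitriol replicates 6, 7 and 8 and 55.8, 84.5 and 71.7 units on placebo replicates 1, 5 and 10, without overlap, and 142.1, 84.1 and 67.3 units on naive replicates 2, 3 and 4. Its difference was 0.63 ± 0.31 log2 between calcitriol and placebo (SE, 95% interval -0.06 to 1.32, limma adjusted p = 1), 0.21 ± 0.31 between calcitriol-treated EAE and naive cord and -0.42 ± 0.31 between placebo-treated EAE and naive cord. Lgals7, at 43.3 to 85.1 units on calcitriol, 20.7 to 59.2 on placebo and 28.0 to 36.0 on naive arrays, stood at 0.80 ± 0.45 log2 in calcitriol-treated EAE against naive cord (SE, limma adjusted p = 0.542). Lgals2 ranged from 246.9 to 340.6 units on calcitriol, 295.7 to 308.3 on placebo and 264 to 427.4 on naive arrays. Lgals4 ranged from 60.98 to 103.3, 92.0 to 112.5 and 87.9 to 131.2 units and Lgalsl from 40.6 to 114.3, 62.9 to 99.5 and 72.1 to 83.4 units over the same groups. Their differences from naive cord lay between -0.39 and 0.01 log2.

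**Figure D5:**
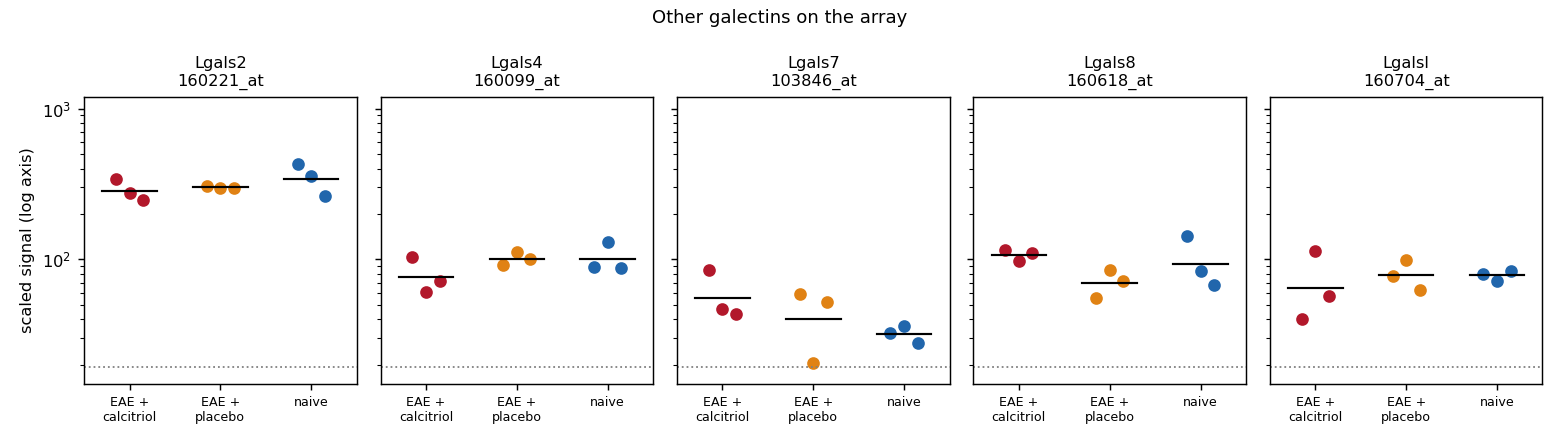
Scaled signal (log axis) of the 5 other galectin genes on each array of calcitriol-treated EAE, placebo-treated EAE and naive cord, with a bar at the mean of the log2 values and the floor of 19.3 units as a dotted line. Groups overlap at most genes, and the 3 calcitriol arrays lie above the 3 placebo arrays for Lgals8 (97.9 to 115.6 against 55.8 to 84.5 units).

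Glycoproteins that carry galectin ligands changed in part. Of 29 measured, 4 rose, 0 fell and 25 did not pass in calcitriol-treated EAE against naive cord, and 2 rose, 0 fell and 27 did not pass in placebo-treated EAE. Over all probe sets, 1.68% and 0.887% were called higher. The lists here and below share genes, Fn1, Lamp2, Itgam and Lyz2 among them, so some calls are counted more than once. Fibronectin (Fn1), a matrix protein that galectins bind, rose by 3.83 ± 0.25 log2 (SE, limma adjusted p = 0.000175) in calcitriol-treated and 3.31 ± 0.25 (SE, 0.000498) in placebo-treated EAE. Col4a1, a chain of basement membrane collagen IV, rose by 1.57 ± 0.18 and 1.42 ± 0.18 log2 (SE). Lamp2, a heavily glycosylated lysosomal membrane protein, rose by 1.42 ± 0.25 log2 in calcitriol-treated EAE (SE, limma adjusted p = 0.0195) and stood at 1.19 ± 0.25 (SE, 0.0668) in placebo-treated EAE. Itgam, the integrin chain CD11b of myeloid cells, rose by 2.58 ± 0.48 log2 (SE, limma adjusted p = 0.0254) and stood at 2.18 ± 0.48 (SE, 0.0849). The list's median difference was 0.36 log2 in calcitriol-treated and 0.29 in placebo-treated EAE, against -0.02 over all probe sets in each.

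Enzymes that build or cap those glycans showed no call. Of 19 measured, 0 rose and 0 fell in either comparison with naive cord, with medians of 0.11 log2 in calcitriol-treated and -0.06 in placebo-treated EAE. Man2a1, a mannosidase of the Golgi, stood at 0.38 ± 0.22 and 0.52 ± 0.22 log2 (SE). St6gal1, the sialyltransferase whose product masks galectin-1 ligands, stood at 1.57 ± 0.96 and 1.62 ± 0.96 log2 (SE), while a second probe set had the opposite sign in both. St3gal3, another sialyltransferase, stood at 0.31 ± 0.44 and -0.84 ± 0.44 log2 (SE), and B3gnt2, which extends the N-acetyllactosamine chains that galectins favour, at 0.16 ± 0.15 and 0.22 ± 0.15 (SE), where its second probe set had the opposite sign in placebo-treated EAE. A list of scavenger receptor cysteine-rich proteins also held related scavenger receptors and lysyl oxidases, some of which, Lox among them, lack that domain. Of its 10 measured genes 0 were called in limma in either comparison, with medians of -0.14 and 0.09 log2. Among them the serine protease Hpn stood at -0.23 ± 0.13 and -0.34 ± 0.13 log2 (SE), Lox, a collagen cross-linking enzyme, at 0.62 ± 0.35 and 0.53 ± 0.35, Cd5l, a macrophage-secreted protein, at -0.45 ± 0.26 and -0.33 ± 0.26, and the protease Tmprss2 at -0.11 ± 0.27 and 0.32 ± 0.27.

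Genes of lysosome-rich phagocytes, the cells that Lgals3 marks, rose in part. Of 21 measured, 8 rose, 0 fell and 13 did not pass in calcitriol-treated EAE, and 7 rose, 0 fell and 14 did not pass in placebo-treated EAE. Medians were 1.28 and 0.86 log2, and 1.68% and 0.887% of all probe sets were called higher. Ctsl, a lysosomal protease, rose by 2.30 ± 0.24 and 2.37 ± 0.24 log2 (SE), the tetraspanin Cd9 by 2.26 ± 0.26 and 2.10 ± 0.26. With every naive array at the floor, Ctsz, another lysosomal protease, rose by at least 2.87 and 2.81 log2 and Lyz2, the lysozyme of myeloid cells, by at least 4.49 and 3.28. Of 25 macrophage and microglia markers, 13 rose in calcitriol-treated and 8 in placebo-treated EAE, 0 fell in either, and medians were 1.09 and 0.75 log2. The complement chains C1qa, C1qb and C1qc rose by 1.68, 2.73 and 2.10 log2 in calcitriol-treated EAE and by 1.75, 2.72 and 2.17 in placebo-treated EAE. A second C1qb probe set had the opposite sign in placebo-treated EAE. Ly86, a partner of a toll-like receptor relative, rose by 2.22 and 2.13 log2.

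Interferon-induced genes, a class that Lgals3bp and Lgals9 are known to belong to, also rose in part. Of 29 measured, 10 rose, 0 fell and 19 did not pass in calcitriol-treated EAE, and 5 rose, 0 fell and 24 did not pass in placebo-treated EAE, with medians of 1.19 and 0.75 log2. Over all probe sets, 1.68% and 0.887% were called higher. The GTPases Iigp1 and Gbp3 rose by 3.53 ± 0.35 and 2.44 ± 0.29 log2 (SE) in calcitriol-treated EAE and by 2.63 ± 0.35 and 1.98 ± 0.29 in placebo-treated EAE. Gbp2, another GTPase, was 23.01-fold and 13.9-fold above naive cord. The chemokine Cxcl10 rose by 3.00 ± 0.33 and 2.08 ± 0.33 log2 (SE). In these arrays Lgals9 and Lgals3bp, with exact zeros missing for the second, stood at 0.66 log2 or less. The counts and medians of the list kept exact zeros at the floor. Treated that way, Lgals3bp stood at -1.15 log2 in calcitriol-treated and 0.19 in placebo-treated EAE. Between calcitriol and placebo the median of the interferon-induced genes was 0.45 log2, and that of the macrophage markers 0.33, with 0 members of either list called.

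The remaining marker lists held few calls. Over all probe sets, 1.68% in calcitriol-treated and 0.887% in placebo-treated EAE were called higher, and 39 and 6 of 12177 lower. Of 14 neutrophil markers 4 rose in each EAE group, the calprotectin chains S100a8 (3.34 and 3.16 log2 in calcitriol-treated and placebo-treated EAE) and S100a9 (at least 1.89 and 2.22), the iron-siderophore binder Lcn2 (2.15 and 2.01) and Chil3 (4.14 and 3.34), a chitinase-like protein. Serpina3n, which reactive astrocytes make to inhibit proteases, rose by 4.89 and 5.30 log2, the only one of 14 astrocyte markers to pass. Mog, a myelin surface protein, fell by 1.83 log2 in calcitriol-treated EAE, 1 of 10 oligodendrocyte markers, and none of them passed in placebo-treated EAE. Cplx1, a presynaptic protein, fell by 1.59 and 1.44 log2, 1 of 16 neuron markers in each. Of the 12 fibroblast and meninges markers Fn1 alone rose in each. T cell (15 measured), B cell (11), endothelium (13) and Schwann cell (3) markers had 0 calls in limma in either comparison.

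Some genes followed the members closely over the 9 arrays. Likeness was the Pearson correlation of log2 signals, given as a description, since the 9 arrays fall into groups that EAE sets apart. Nearest to Lgals1 were Ptprc, the leukocyte phosphatase CD45 (r = 0.986), the matrix protein Tgfbi (0.967), the protease Ctsh (0.966), the C1 inhibitor Serping1 (0.961) and the interferon-induced Ifit3 (0.959). Tgfbi, for example, had 346.8 to 851.5 units on calcitriol, 289.8 to 451.1 on placebo and 61.2 to 100.3 on naive arrays. Ptprc was read here on a probe set with the suffix _g_at. It had only 40.4 to 71.1 units on calcitriol and 36.4 to 40.7 on placebo arrays. That probe set was at the floor on each naive array. The macrophage and microglia list read Ptprc on another probe set. There it was not at the floor on every naive array and was not called against naive cord. Nearest to Lgals3 were the interferon-induced Ifi204 (r = 0.995), the nucleotide hydrolase Samhd1 (0.994), the lipid droplet protein Plin2 (0.993), the chemokine Ccl7 (0.990) and Iigp1 (0.989). Samhd1 had 268.7 to 511 units on calcitriol, 102.4 to 334.5 on placebo and 43.9 to 59.0 on naive arrays. Ifi204 and Ccl7 were at the floor on each naive array, as Lgals3 was. Nearest to Lgals9 at its plain probe set were the peptidase Scpep1 (r = 0.990), the desmosomal protein Pkp1 (0.985), the growth factor Kitl (0.964), Tyrobp, a signalling adaptor of myeloid cells (0.950), and the lysosomal protein Cln3 (0.938). Ifi204 and Pkp1 were read on probe sets with the suffix _f_at.

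For Lgals3bp the nearest genes were Alox15 (r = 0.993), Cd68 (0.989), Psmg4 (0.987), Ifi27 (0.985) and Epha4 (0.985), and all 5 shared with it the exact 0 on calcitriol replicate 8. Over the 8 arrays without that 0, a setting chosen after the data had been seen, the nearest were Grk6 (r = 0.927), Kcnj4 (0.925), Atad2b (0.915), Prps1l3 (0.914) and Atxn1 (0.908), and 0 genes were on both lists.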

How the data were processed

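Total RNA of spinal cord was read on 9 oligonucleotide arrays, 1-colour and with 12488 probe sets each. The deposited values are linear intensity signals, partly below 0. What the authors did to scale and summarise them: not given in the sources used here. Each array was scaled to a common mean of 192.8, taken without the 66 control probe sets and without the lowest and highest 2% of values, floored at 10% of that mean and put on a log2 scale. Probe sets that exceeded the floor on 3 or more of the 9 arrays, 12177 in number, were tested in 1 fit of limma 3.58.1 (R 4.3.3) with intensity trend and 6 residual degrees of freedom, across all genes, with Benjamini-Hochberg adjustment within each comparison. The fit was tested on simulated data. Python 3.11.15, pandas 2.3.3 and matplotlib 3.10.9 gave the descriptions and plots. Symbols came from the platform annotation (10855 probe sets with 1 symbol, 396 with several, 1237 with none), and promoter sequences from RefSeq. Listed genes were read on 1 probe set each, a plain one where possible and then the brightest. A fold against naive arrays that are all at the floor is a lower bound.

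The members and the 16 gene lists, written from general knowledge, were chosen with earlier results of these data known. Named genes were all members and the 5 genes most like each over the arrays, among probe sets at the floor on at most 3 arrays. From each list, genes were named out of the 4 with the smallest unadjusted p in placebo-treated EAE against naive cord. For some cell type lists not all 4 were named. Lgalsl and Cd53 fall outside this rule: they were named with their values in view. The motifs searched were chosen after the stretches had been seen. Replicate numbers do not recur between groups, so nothing was paired.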

Additional observations from a re-analysis of the deposited data

How the results depend on the processing

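Alternatives were deposited scale, quantile normalization, floors of 5% and 20%, no filter, a filter on the mean, exact zeros missing, array weights, only the groups compared, no intensity trend and leaving out each array. Lgals3 in calcitriol-treated EAE against naive cord was called in all 19, at 3.48 to 5.48 log2. Its value in placebo-treated EAE kept its direction, at 1.99 to 3.99 log2, and was called in 4, so the count of members called there, 0, became 1 with the floor of 5%, exact zeros missing and array weights, and 0 to 1 with 1 array left out. The 2 calls in calcitriol-treated EAE became 1 with only the groups compared and with no intensity trend, and 1 to 2 with 1 array left out. The 2 calls for both EAE groups became 1 with no intensity trend, 3 with array weights, which add Lgals9 at its _f_at probe set, and 1 to 2 with 1 array left out. No member was called between calcitriol and placebo in any setting. With exact zeros missing Lgals3bp turned to 0.34 log2 in calcitriol-treated EAE against naive cord, to 0.15 against placebo and to 0.26 for both EAE groups, and with 1 array left out it ran from -2.05 to 0.34, -2.24 to 0.15 and -0.93 to 0.26. Lgals9 at its _f_at probe set ran from -0.10 to 0.25 between calcitriol and placebo, below 0 without calcitriol replicate 6 (-0.10) or placebo replicate 5 (-0.01), and at its plain probe set from -0.0097 to 0.26 between placebo and naive, below 0 without placebo replicate 5. The cause of these changes was not tested, apart from the exact 0. Over all probe sets, 114 calls in placebo-treated EAE ranged from 20 to 639, 244 in calcitriol-treated EAE from 75 to 1014, 268 for both EAE groups from 143 to 1461, and 0 between calcitriol and placebo from 0 to 1. The counts of 639, 1014 and 1461 came with array weights. Signals near the floor limit the size of low values such as Lgals3 in naive cord.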
